A study of Rattus norvegicus with 14 samples.

Results

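The genes of the constitutive proteasome were followed across phenylephrine stimulation and BET bromodomain inhibition in cultured rat heart muscle cells. A gene was taken as a member when its symbol begins with Psma, Psmb, Psmc or Psmd, leaving out the immunoproteasome subunits Psmb8, Psmb9 and Psmb10. This gave 33 of the 13184 genes measured by a probe set that names a single gene. Of these, 12 encode subunits of the 20S core, 17 encode subunits of the 19S regulatory particle and 3 encode chaperones that help to build the base of that particle. The remaining gene, Psmc3ip, is caught by its symbol alone: it encodes a partner of the Psmc3 protein known as a cofactor of meiotic recombination and is not a proteasome subunit. The core genes Psma3 and Psmb6 are not among the genes analysed here; the probe set that names Psmb6 also names a second gene, and it was not used.

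The proteasome is the main protease of the cytosol and nucleus and degrades proteins tagged with ubiquitin. Its barrel, the 20S core, stacks outer rings of alpha subunits (Psma genes) on inner rings of beta subunits (Psmb genes), and the beta subunits Psmb5, Psmb6 and Psmb7 carry the proteolytic sites. The 19S particle caps the barrel: a base with a ring of ATPases (Psmc genes) unfolds the substrate, and a lid (Psmd genes) removes the ubiquitin chain. Heart muscle cells depend on it for the turnover of contractile proteins, and genes of the complex are known to be induced together when proteasome activity is blocked.

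Ventricular myocytes from Sprague-Dawley rat pups 2 days old were grown in culture and profiled on 14 Affymetrix rat arrays in 5 groups. Unstimulated cells received the vehicle DMSO and were labelled 90 min (3 arrays). Cells stimulated with 100 µM phenylephrine (PE), an alpha1-adrenergic agonist that makes these myocytes enlarge, were profiled with DMSO at 6 h (2 arrays) and 48 h (3 arrays), and with JQ1, which displaces BET bromodomain proteins from acetylated chromatin, at 6 h (3 arrays) and 48 h (3 arrays). The treatment protocol, given for all 14 arrays, has the cells in JQ1 or DMSO for 6 h and PE added afterwards, while the design text has PE first, and the order is not settled; no JQ1 concentration is stated for these groups. The PE groups differ from the unstimulated group in time under treatment as well as in PE, and no group received JQ1 without PE. Separate cultures are not named for the arrays of a group, and the p-values therefore rest on array-to-array spread that may be technical.

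All 8 cardiomyocyte markers were well detected, with summed levels of 16.74 to 16.93 on the log2 scale across arrays. Single markers moved within that sum: with JQ1, 1 of the 8 was higher and 3 were lower at 6 h. At 48 h 2 were higher and 4 lower, among them Mybpc3 at 0.65 and Tnni3 at -1.55. All 6 fibroblast markers were detected too, and their summed log2 level ran from 15.20 to 15.25 in unstimulated cells, 14.95 to 14.98 with PE at 48 h, 14.94 to 14.97 with JQ1 at 6 h and 14.10 to 14.12 with JQ1 at 48 h. Of 4 measured endothelial markers, 1 or 2 were above the dim limit of 6.23 in each group, with Pecam1 lowest at 3.90 to 4.06 and Tek at 6.51 in the JQ1 48 h group. Of 5 leukocyte markers, 1 to 3 were above it, with Ptprc lowest at 4.44 to 5.28 and Cd68 highest at 6.47 to 6.75. All 4 smooth muscle markers were detected, some of which myocytes also express, and their summed log2 level was 12.87 to 12.93 in unstimulated cells and 13.43 to 13.64 in the other groups. With JQ1, 3 of the 4 were lower and 1, Des, was higher at each time (Cnn1 by -2.02 and Acta2 by -1.05 at 48 h), and 2 of 4 endothelial markers were lower at each time (Kdr by -1.06 at 48 h). The myocytes had been plated selectively to remove other cells, and a fall in the number of cells of a type and less RNA per cell cannot be told apart in these bulk samples. With JQ1, 4 of 6 fibroblast markers were lower at 6 h and 6 of 6 at 48 h. The part that these marker changes have in the results below was not tested.

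Promoter sequences were available for 29 of the 33 genes from RefSeq (assembly GRCr8), as the 300 bases from 250 before to 50 after each gene's start. The 4 shown belong to the genes whose responses to JQ1 stand out below: Psmd3 and Psmd4 were raised by JQ1 at both times, and Psma6 and Psmb5 were lowered at 6 h and not past the threshold at 48 h. They read 5′ to 3′ on the gene's strand, from chr10:84139688-84139987 (plus strand) for Psmd3, chr2:185297152-185297451 (minus) for Psmd4, chr6:78514097-78514396 (plus) for Psma6 and chr15:32047330-32047629 (minus) for Psmb5. Capitals mark matches, on either strand, to an antioxidant response element core (TGACNNNGC), a CCAAT box (CCAAT) or a GC box (GGGCGG).
Psmd3: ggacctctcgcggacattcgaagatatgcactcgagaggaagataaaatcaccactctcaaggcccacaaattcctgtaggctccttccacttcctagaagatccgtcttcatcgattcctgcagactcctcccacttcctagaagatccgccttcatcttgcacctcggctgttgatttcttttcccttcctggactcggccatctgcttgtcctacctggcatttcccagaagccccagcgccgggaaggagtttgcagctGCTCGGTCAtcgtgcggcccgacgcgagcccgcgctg
Psmd4: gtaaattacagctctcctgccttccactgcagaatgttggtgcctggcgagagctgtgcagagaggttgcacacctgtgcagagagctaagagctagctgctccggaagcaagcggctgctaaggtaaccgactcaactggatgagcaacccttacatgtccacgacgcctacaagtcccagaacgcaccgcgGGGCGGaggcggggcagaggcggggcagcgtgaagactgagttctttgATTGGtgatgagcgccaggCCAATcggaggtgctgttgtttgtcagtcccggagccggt
Psma6: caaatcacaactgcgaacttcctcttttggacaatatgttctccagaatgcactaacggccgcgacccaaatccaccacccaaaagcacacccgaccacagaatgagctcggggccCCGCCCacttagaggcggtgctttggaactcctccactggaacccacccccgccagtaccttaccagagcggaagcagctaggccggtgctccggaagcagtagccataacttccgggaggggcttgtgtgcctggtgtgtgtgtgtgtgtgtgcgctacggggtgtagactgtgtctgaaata
Psmb5: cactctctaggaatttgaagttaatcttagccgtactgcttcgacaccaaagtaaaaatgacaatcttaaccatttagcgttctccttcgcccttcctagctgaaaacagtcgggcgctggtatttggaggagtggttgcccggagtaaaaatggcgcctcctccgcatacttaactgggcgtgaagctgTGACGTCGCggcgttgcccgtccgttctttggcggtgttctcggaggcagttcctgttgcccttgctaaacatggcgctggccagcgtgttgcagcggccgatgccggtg

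The antioxidant response element core is the kind of site that Nfe2l1 and Nfe2l2, transcription factors known to drive proteasome genes, recognise. It was matched in 5 of the 29 promoters (17.2%; Psmb2, Psmb5, Psmd1, Psmd3 and Psmd9), beside 12.1% of all 33469 promoters of the table. In Psmd3 the match lies 13 bases after the start on the opposite strand, and in Psmb5 it begins 60 bases before the start. The CCAAT box was matched in 16 of 29 (55.2%, against 37.5% of all promoters) and the GC box in 20 of 29 (69%, against 33.1%), and in Psmb2 motif matches overlap. The 33469 promoters outnumber the 13184 genes measured here and were not limited to measured or bright genes. The shares are therefore not from like sets. Of the promoters shown, Psmd4 holds a GC box and a CCAAT match on each strand, and Psma6 holds a GC box on the opposite strand. A response element match thus occurs both in Psmd3, which was higher with JQ1, and in Psmb5, which was lower at 6 h; a match is a description of the sequence and no binding was measured.

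Proteasome genes were abundant and nearly level across the 5 groups. No member was dim in any group. The lowest lay at percentile 64.7 of all genes by mean level and the median member at percentile 93.4; probe sets differ in brightness, so levels are not compared between members. The difference between a gene's highest and lowest group mean had a median of 0.24 log2 units over the 33 genes, against 0.46 over all genes. It was smallest, at 0.08, in Psma5 and Psmb2, an alpha and a beta subunit of the core, and largest, at 0.62, in the lid subunit Psmd3. No member changed by more than 1.5-fold in any comparison, while 4.57% to 18.5% of all genes did. The median size of the log2 fold change over the members lay between 0.058 and 0.088 in the 5 comparisons of groups, against 0.123 to 0.213 over all genes.

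**Figure D1:**
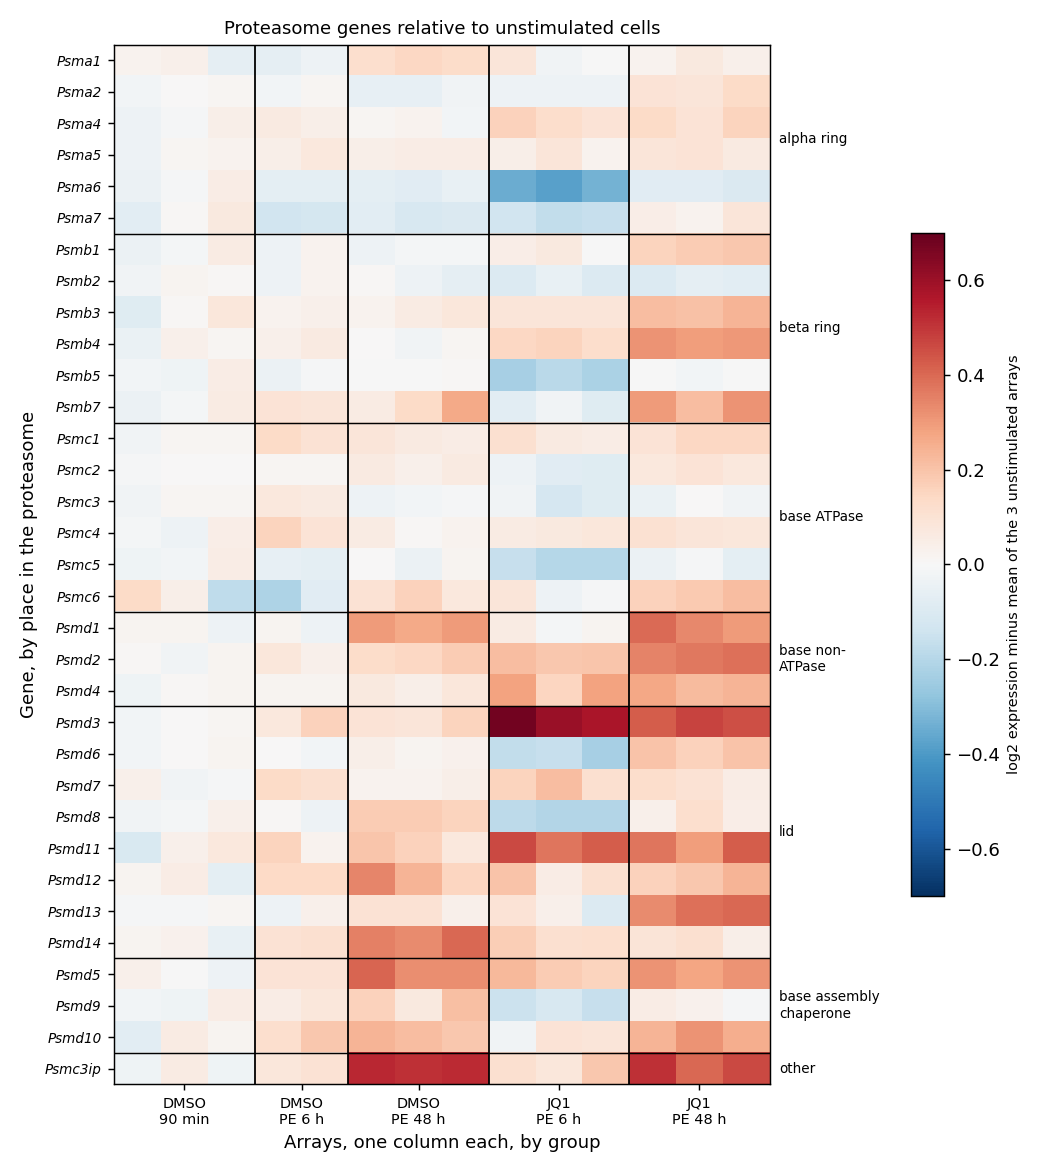
Log2 expression of each of the 33 genes on each of the 14 arrays, minus the gene's mean over the 3 unstimulated arrays (colour scale, red higher and blue lower); rows are genes ordered by place in the proteasome and columns are arrays by group. Most rows stay pale; the deepest red is Psmd3 with JQ1 at 6 h, and the deepest blue is Psma6 in the same arrays.

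**Figure D2:**
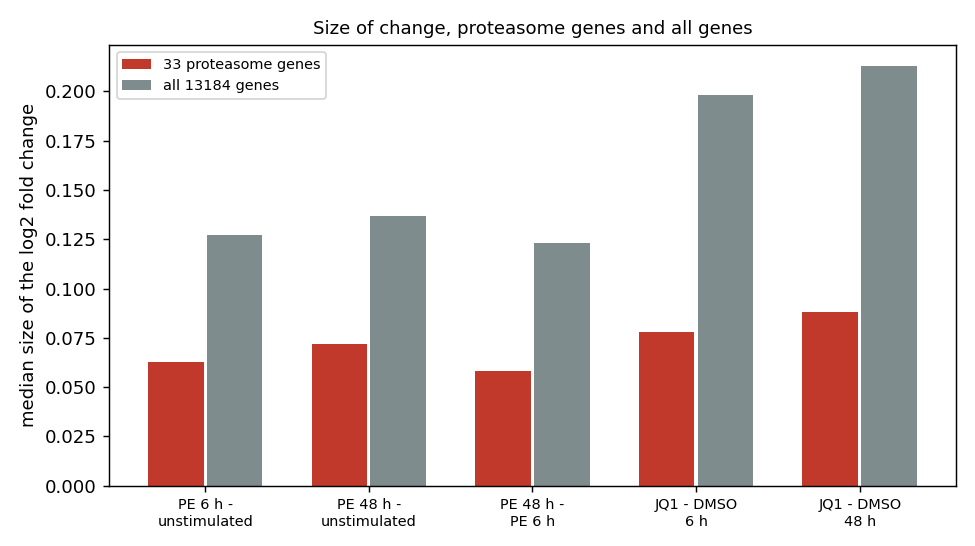
Median size of the log2 fold change (vertical axis, log2 units) in the 5 comparisons of groups for the 33 proteasome genes (red) and all 13184 genes (grey). The red bars stand at 0.058 to 0.088 and the grey bars at 0.123 to 0.213.

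Few proteasome genes differed between unstimulated cells and cells after 6 h of PE, groups that differ in time under treatment as well. At 6 h, 4 of 33 were higher and 1 was lower than in unstimulated cells at an adjusted p under 0.05, a share of 15.2%, where 37.2% of all genes were called. The 95% confidence interval of the fold change lay within 1.2-fold in either direction for 31 of 33 members (93.9%), against 39% of all genes. Members are bright, and of the 4446 genes at least as bright as the dimmest subunit or chaperone the share was 53.1%. The share of these 4446 genes that were called was likewise 53.1%. The median log2 change was 0.05 over the members and 0.01 over all genes.

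Of the 4 rises, 3 were in the 19S particle and 1 was a chaperone of its base. For the 17 genes of the particle this is 17.6%, close to the 18.3% of all genes that were higher. Psmd10, known as gankyrin, a chaperone of the base, read 9.52, 9.65 and 9.61 (log2) in unstimulated cells and 9.71 and 9.78 after 6 h of PE. The groups did not overlap, and the change was 0.15 ± 0.051 (SE; adjusted p = 0.035). The ATPase Psmc4 read 11.60, 11.58 and 11.66, then 11.77 and 11.71, a rise of 0.13 ± 0.038 (adjusted p = 0.0181). The ATPase Psmc1 read 11.01, 11.05 and 11.05, then 11.17 and 11.14, a rise of 0.12 ± 0.037 (adjusted p = 0.022). The lid subunit Psmd7 rose by 0.12 ± 0.039 (adjusted p = 0.0311). In the core only the alpha subunit Psma7 was called, and it fell: it read 12.35, 12.43 and 12.49 unstimulated and 12.29 and 12.30 with PE (log2 change -0.13 ± 0.042, adjusted p = 0.0338). These calls are small and rest on a group of 2 arrays. The count of 4 higher became 2 without unstimulated array 1, 2 or 3 or without PE 6 h array 2, and 1 without PE 6 h array 1, and it was 0, with 0 lower, when only the 2 groups compared entered the fit; with an intensity trend it was 8, with 2 lower. The fall of Psma7 was lost without unstimulated array 2 or 3 or either PE 6 h array, and with the replicate block.

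By 48 h of PE a set of regulatory particle genes and all 3 base chaperones had risen. In all, 12 of 33 members were higher and 0 lower than in unstimulated cells, where 21.4% of all genes were higher, 22.6% were lower and 44.1% were called in either direction. The members' share called was 36.4%, and that of the 4446 bright genes was 60.5%. At an unadjusted p under 0.05, 2 members were lower (Psma6 and Psma7). The median log2 change was 0.06 over the members and 0.01 over all genes. In all 24 of 33 members had an interval within 1.2-fold (72.7%), against 42.6% of all genes and 53.8% of the 4446 bright genes.

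Among the chaperones, Psmd5, which holds ATPases of the base during assembly, read 10.35, 10.31 and 10.28 in unstimulated cells, 10.41 and 10.41 at 6 h and 10.72, 10.64 and 10.64 at 48 h. The 48 h arrays lay above all others given DMSO, and the rise was 0.35 ± 0.037 (adjusted p = 6.7e-06). Psmd10 rose by 0.21 ± 0.046 (adjusted p = 0.00221), with the 48 h arrays at 9.83, 9.81 and 9.78. Psmd9, a chaperone with a PDZ domain, read 9.05, 9.04 and 9.12 unstimulated and 9.23, 9.14 and 9.28 at 48 h, a rise of 0.15 ± 0.041 (adjusted p = 0.0109) without overlap; it was lost without PE 48 h array 3 and with the mean of its probe sets, where it was 0.053.

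In the lid, 4 of 8 genes rose. The largest was Psmd14, the enzyme that cuts the ubiquitin chain from the substrate. It read 11.48, 11.49 and 11.41 unstimulated, 11.56 and 11.57 at 6 h and 11.81, 11.79 and 11.86 at 48 h, so that the 3 groups stood apart in steps. The step at 6 h, 0.10 ± 0.042, did not pass (adjusted p = 0.0721). Its dimmer probe sets did pass at 6 h, at 0.15 (adjusted p = 0.0361) and 0.32 (adjusted p = 0.00869). The change at 48 h was 0.36 ± 0.038, or 1.28-fold (adjusted p = 7.4e-06). Its dimmer probe sets rose as well, by 0.37 and 0.57. The lid subunits Psmd12, Psmd8 and Psmd3 rose by 0.24, 0.17 and 0.11; the call of Psmd3 was lost without unstimulated array 1, 2 or 3 or without PE 48 h array 1 or 3 (log2 changes of 0.09 to 0.12).

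In the base, 2 of the 3 non-ATPase subunits rose and none of the 6 ATPases was called. Psmd1, a scaffold subunit that docks ubiquitin receptors, read 10.42, 10.42 and 10.37 unstimulated, 10.42 and 10.37 at 6 h and 10.70, 10.67 and 10.70 at 48 h. Its unstimulated and 6 h arrays overlapped and the 48 h arrays lay above them, with a rise of 0.29 ± 0.036 over unstimulated cells (adjusted p = 3.6e-05). The other scaffold subunit, Psmd2, rose by 0.15. The ATPases changed by -0.02 to 0.12.

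The core moved less, with 2 of 12 genes called. The alpha subunit Psma1 rose by 0.13 ± 0.039 (adjusted p = 0.0177), a call lost without unstimulated array 3 or PE 48 h array 2 (log2 changes of 0.10 and 0.12). The catalytic subunit Psmb7, which cuts after basic residues, read 10.54, 10.57 and 10.64 unstimulated and 10.64, 10.72 and 10.85 at 48 h, nearly touching, with a rise of 0.15 ± 0.051 (adjusted p = 0.0284); it was lost without unstimulated array 1 or 2 or PE 48 h array 2 or 3. The catalytic subunit Psmb5, which cuts after hydrophobic residues and is the main target of bortezomib, read 12.89, 12.88 and 12.96 unstimulated and 12.91, 12.91 and 12.92 at 48 h, a change of 0.00 ± 0.032 (adjusted p = 0.96). The median over the 12 core genes was 0.00, and over the 17 genes of the 19S particle it was 0.08.

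Psmc3ip, which is no subunit, changed more than any subunit between unstimulated and 48 h PE arrays. It read 8.71, 8.80 and 8.71 unstimulated, 8.82 and 8.84 at 6 h and 9.27, 9.25 and 9.26 at 48 h, a rise of 0.52 ± 0.042, or 1.43-fold (adjusted p = 6.6e-07).

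Between 6 h and 48 h of PE, 8 of 33 members were higher and 0 lower, a share of 24.2%. Called were 34.6% of all genes, 16.3% higher and 18.4% lower, and 50.9% of the 4446 bright genes. At an unadjusted p under 0.05, 3 members were lower (Psmc3, Psmc4 and Psmd7). The largest rises were Psmc3ip at 0.43 ± 0.047 (adjusted p = 1.6e-05), Psmd1 at 0.29 ± 0.040 (adjusted p = 0.00012) and the ATPase Psmc6 at 0.26 ± 0.078 (adjusted p = 0.02). Psmc6 read 10.59 and 10.73 at 6 h and 10.91, 10.97 and 10.88 at 48 h, with unstimulated arrays spread from 10.63 to 10.94. Of its other probe sets, one of nearly the same brightness gave 0.12 (adjusted p = 0.123) and a dimmer one -0.09 (adjusted p = 0.106); neither passed. It was lost without PE 6 h array 1 or PE 48 h array 2. Psmd5, Psmd14, Psma1, Psmd8 and Psmd2 rose by 0.26, 0.25, 0.18, 0.18 and 0.10; the call of Psmd2 was lost without any 1 of the 14 arrays (0.08 to 0.11). This comparison shares its arrays with the 2 before it.

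**Figure D3:**
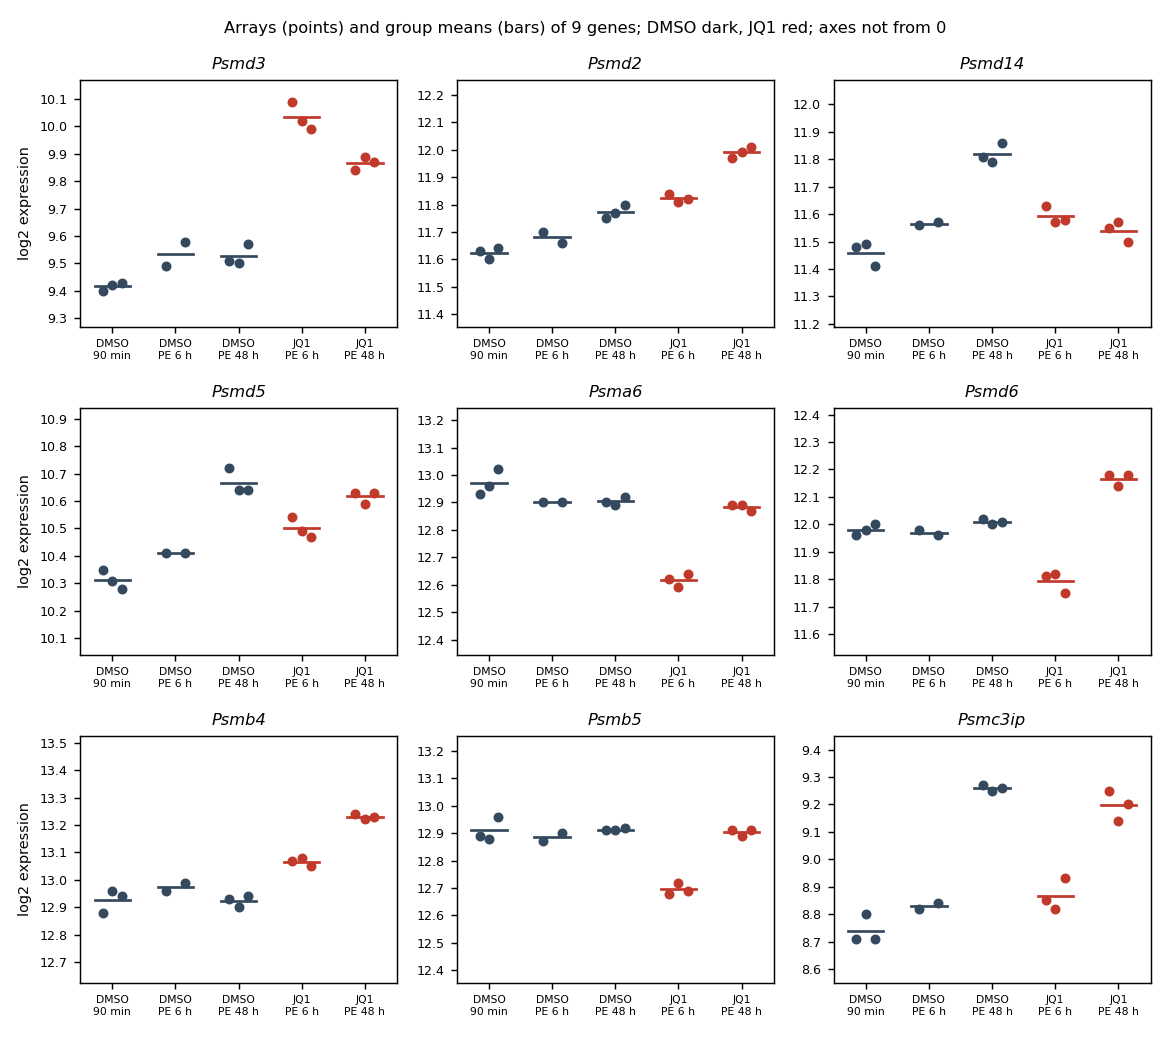
Log2 expression (vertical axis) of 9 genes on each array (points) with group means (bars), DMSO groups dark and JQ1 groups red; each panel spans the same 0.9 log2 units and does not start at 0. Psmd14 and Psmd5 step up with PE, Psmd3 is high in both JQ1 groups, and Psma6, Psmb5 and Psmd6 are low with JQ1 at 6 h only.

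JQ1 moved proteasome genes in both directions at 6 h. Against DMSO at the same time of PE, 5 of 33 were higher and 8 lower, a share of 39.4%, where 54.3% of all genes were called, 25.5% higher and 28.8% lower. Among the 4446 genes at least as bright as the dimmest subunit or chaperone, 71.3% were called. The median log2 change was -0.01 over the members and 0.00 over all genes. In all 24 of 33 members had an interval within 1.2-fold (72.7%), against 27.3% of all genes and 36.6% of the 4446 bright genes. When each array was centred on its own median, the median of all genes moved by 0.085 and the split became 15 higher and 3 lower, with 34.2% and 22.7% of all genes; no called gene changed sign, but the falls of Psmb7, Psmc3, Psmc5, Psmd6 and Psmd8 no longer passed.

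Of the 5 rises, 2 were in the lid, 2 among the non-ATPase base subunits and 1 in the beta ring. Psmd3, a scaffold subunit of the lid, read 9.49 and 9.58 with DMSO and 10.09, 10.02 and 9.99 with JQ1. Its JQ1 arrays lay above every DMSO array of the study, and the change of 0.50 ± 0.044, or 1.41-fold (adjusted p = 8.3e-07), was the largest of any subunit in any comparison. Psmd11, another lid subunit, read 11.35 and 11.22 with DMSO and 11.66, 11.57 and 11.62 with JQ1, a rise of 0.33 ± 0.065 (adjusted p = 0.00068); its other probe sets gave -0.04 and 0.08, neither past the threshold, so the rise at 6 h is seen by the brightest probe set alone. Psmd4, a ubiquitin receptor, read 10.80 and 10.80 with DMSO and 11.06, 10.93 and 11.06 with JQ1, a rise of 0.22 ± 0.045 (adjusted p = 0.00101). Psmd2 rose by 0.15, and the beta subunit Psmb4 by 0.09 with an adjusted p just under the threshold, a call lost under 16 of 21 alternative settings, among them leaving out 13 of the 14 arrays in turn.

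The 8 falls (24.2% of members, under the 28.8% of all genes) were in the alpha ring, the beta ring, the ATPases, the lid and a chaperone, and none was a non-ATPase base subunit. With arrays centred on their medians 3 of them passed, Psma6, Psmb5 and Psmd9. Psma6, an alpha subunit, read 12.90 and 12.90 with DMSO and 12.62, 12.59 and 12.64 with JQ1. Its JQ1 arrays were the 3 lowest of all 14, and the change was -0.29 ± 0.037 (adjusted p = 2.3e-05). The catalytic subunit Psmb5 read 12.87 and 12.90 with DMSO and 12.68, 12.72 and 12.69 with JQ1, a change of -0.19 ± 0.036 (adjusted p = 0.00058), again with the 3 lowest arrays; averaged with its dim probe sets the change was -0.083 and did not pass. The catalytic subunit Psmb7 changed by -0.15 ± 0.058 (adjusted p = 0.0396), from 10.68 and 10.67 to 10.51, 10.56 and 10.50, a call lost without unstimulated array 2, PE 48 h array 2, either PE 6 h array given DMSO or JQ1 6 h array 1 or 3. The chaperone Psmd9 read 9.12 and 9.15 with DMSO and 8.92, 8.96 and 8.91 with JQ1, a change of -0.20 ± 0.046 (adjusted p = 0.00226). The lid subunits Psmd8 and Psmd6 changed by -0.19 and -0.17, and the ATPases Psmc3 and Psmc5 by -0.14 and -0.12. Psmc5 was lost without either PE 6 h array given DMSO. The ATPase Psmc6 was not called, at 0.16 (adjusted p = 0.1101). Its other probe sets gave 0.05 (adjusted p = 0.4525) and, in the dimmest, a fall past the threshold at -0.24 (adjusted p = 0.000269). The other chaperones did not pass, with Psmd5 at 0.09 ± 0.041 (adjusted p = 0.072; past the threshold at 0.179 with centred arrays and at 0.098 with repeated quantile normalization) and Psmd10 at -0.10 ± 0.051 (adjusted p = 0.118).

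At 48 h the balance of JQ1 calls lay on the higher side. Of 33 members 12 were higher and 3 lower, a share of 45.5%, where 59.6% of all genes were called, 30% higher and 29.6% lower. Among the 4446 bright genes 77.9% were called. The median log2 change was 0.06 over the members and 0.02 over all genes. In all 25 of 33 intervals lay within 1.2-fold (75.8%), against 29.9% of all genes and 34.3% of the 4446 bright genes. Centring each array on its median, which moved the median of all genes by 0.088, gave 20 higher and 1 lower (39.5% and 23.9% of all genes) without a change of sign in any called gene; the falls of Psmd8 and Psmd9 no longer passed.

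In the core 6 of 12 genes rose and none fell past the threshold, with a median of 0.12. Psmb4 read 12.93, 12.90 and 12.94 with DMSO and 13.24, 13.22 and 13.23 with JQ1. The JQ1 arrays were the 3 highest of all 14, and the rise was 0.31 ± 0.032 (adjusted p = 2.7e-06). The beta subunits Psmb1 and Psmb3 rose by 0.19 and 0.17, and the alpha subunits Psma2, Psma7 and Psma4 by 0.15, 0.15 and 0.12. The catalytic subunits did not pass: Psmb5 read 12.91, 12.91 and 12.92 with DMSO and 12.91, 12.89 and 12.91 with JQ1 (-0.01 ± 0.032, adjusted p = 0.809), and Psmb7 differed by 0.13 ± 0.051 (adjusted p = 0.0516) with overlapping arrays. With centred arrays Psmb7 was called at 0.214 (adjusted p = 0.00312), and it also passed without PE 48 h array 3 (0.181) or JQ1 48 h array 2 (0.156).

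In the 19S particle 6 genes rose and 2 fell. Psmd3 read 9.51, 9.5 and 9.57 with DMSO and 9.84, 9.89 and 9.87 with JQ1, a rise of 0.34 ± 0.039 (adjusted p = 6.4e-06). The lid subunit Psmd13 read 10.72, 10.72 and 10.65 with DMSO and 10.95, 11 and 11.02 with JQ1, a rise of 0.29 ± 0.046 (adjusted p = 0.000112), and its JQ1 48 h arrays lay above all other arrays. Psmd11, Psmd2, Psmd4 and Psmd6 rose by 0.22, 0.21, 0.18 and 0.16, and one further probe set of Psmd11 gave 0.23 here (adjusted p = 3.3e-05) while the other gave -0.01 (adjusted p = 0.922). None of the 6 ATPases was called; they changed by -0.03 to 0.07.

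Psmd14 went the other way. It read 11.81, 11.79 and 11.86 with DMSO and 11.55, 11.57 and 11.50 with JQ1 at 48 h, a change of -0.28 ± 0.038, or 1.22-fold lower (adjusted p = 2.6e-05). The JQ1 arrays lay above the unstimulated arrays, at 11.41 to 11.49, and around the PE 6 h arrays, at 11.56 and 11.57. The rise with PE and this fall share the DMSO arrays at 48 h, and no direct test compared JQ1 at 48 h with unstimulated cells. Of its other probe sets, the brighter one fell by 0.36 on the log2 scale (adjusted p = 1.3e-05) and the dimmest differed by -0.16 (adjusted p = 0.0852). Psmd9 and Psmd8 were lower by small amounts, -0.12 ± 0.041 (adjusted p = 0.0218) and -0.10 ± 0.034 (adjusted p = 0.0219). The fall of Psmd9 was lost without PE 48 h array 1 or 3 or JQ1 48 h array 3, and that of Psmd8 without PE 48 h array 1 or 2 or JQ1 48 h array 1 or 3. Of the other genes higher at 48 h of PE than in unstimulated cells, Psmd2 and Psmd3 were higher with JQ1, by 0.21 and 0.34. Psma1, Psmb7, Psmd1 and Psmd12, at -0.09, 0.13, 0.06 and -0.04, did not pass. Psmd5 differed by -0.05 ± 0.037 (adjusted p = 0.28), Psmd10 by 0.05 ± 0.046 (adjusted p = 0.345; called at 0.142 with centred arrays) and Psmc3ip by -0.06 ± 0.042 (adjusted p = 0.232).

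The effect of JQ1 differed between the times for 12 of the 33 genes, tested as the JQ1 effect at 48 h minus that at 6 h. It was higher at 48 h for 10 and lower for 2, where 38.8% of all genes were called, 20.4% higher and 18.3% lower. The share called was 36.4% of members and 56% of the 4446 bright genes. The median difference was 0.09 over the members and 0.01 over all genes. Of the 12 core genes 7 had a higher effect at 48 h and 1 a lower effect, with a median of 0.17. Of the 17 genes of the 19S particle 3 were higher and 1 lower, with a median of 0.07. Psmd11 and Psmc6 were not called, at -0.11 and -0.08, but other probe sets of theirs differed. For Psmd11 they gave 0.27 (adjusted p = 0.0006) and, in a dim set, -0.09 (adjusted p = 0.6015). For Psmc6 they gave 0.06 (adjusted p = 0.6035) and, in the dimmest set, 0.21 (adjusted p = 0.0084).

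Psmd6 reversed: it read 11.98 and 11.96 with DMSO at 6 h against 11.81, 11.82 and 11.75 with JQ1, and 12.02, 12 and 12.01 with DMSO at 48 h against 12.18, 12.14 and 12.18 with JQ1. Its JQ1 arrays were thus the lowest of all arrays at 6 h and the highest at 48 h, and the difference between effects was 0.33 ± 0.048 (adjusted p = 0.000134). Psma6, low at 6 h, read 12.89, 12.89 and 12.87 with JQ1 at 48 h beside 12.90, 12.89 and 12.92 with DMSO, a difference between effects of 0.27 ± 0.049 (adjusted p = 0.00078). Psmd13, Psmb7 and Psmb4 had differences of 0.28, 0.28 and 0.22. Psmb5 had a difference of 0.18 ± 0.048 (adjusted p = 0.01). Psmd14 had one of -0.31 ± 0.057 (adjusted p = 0.0008), and its other probe sets gave -0.38 and -0.40. The dimmest, at -0.40, was called higher with JQ1 at 6 h, by 0.24 (adjusted p = 0.0299). The other, at 0.02, was not called there. Psma1, at -0.16 ± 0.059 (adjusted p = 0.0493), was lost under 16 of 21 alternative settings.

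**Figure D4:**
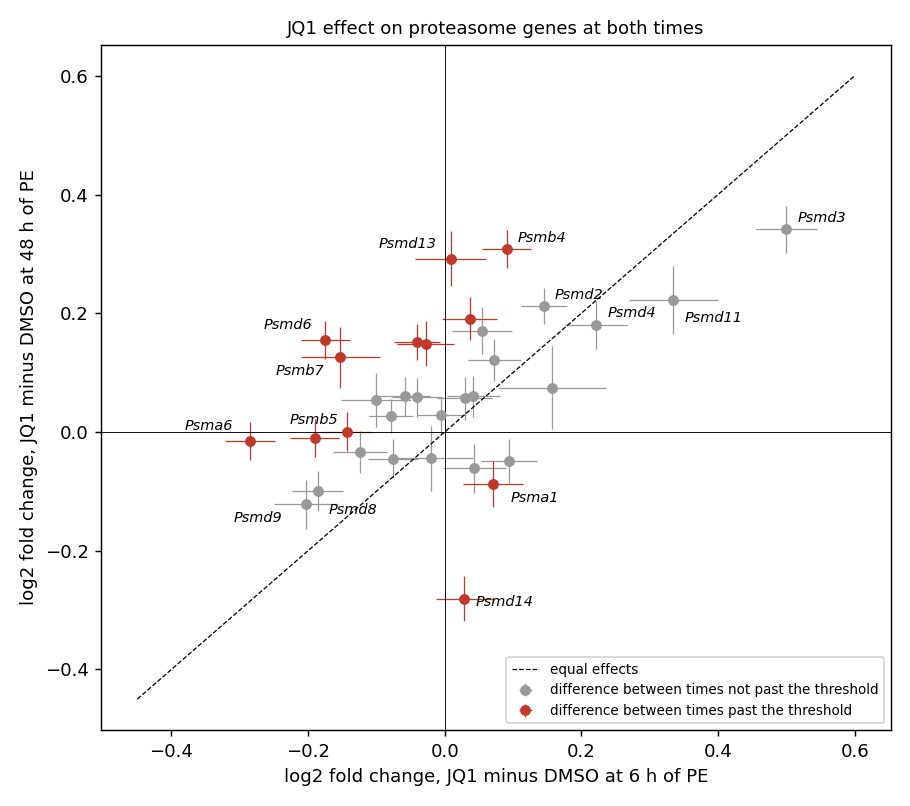
Log2 fold change of each of the 33 genes with JQ1 against DMSO at 6 h of PE (horizontal axis) and at 48 h (vertical axis), with bars of 1 standard error; the dashed line marks equal effects and red points are the 12 genes whose effects differed past the threshold. Psmd3, at 0.50 and 0.34, is farthest right, and at 48 h it lies near Psmb4 (0.31) and Psmd13 (0.29); Psmd6 is at -0.17 and 0.16, and Psmd14 is the low point at 48 h (-0.28).

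Across both times, JQ1 gave 5 genes a higher level at each (Psmd2, Psmd3, Psmd4, Psmd11 and Psmb4, the last with the weak call at 6 h described above) and 2 a lower level at each (Psmd8 and Psmd9). The rise of Psmd11 at 6 h was seen by its brightest probe set alone. With arrays centred on their medians the falls of Psmd8 at both times and of Psmd9 at 48 h did not pass. Higher at both times were thus 15.2% of members and 17.5% of all genes, and lower at both 6.06% and 19.9%. Psmd6 was lower and then higher, as were 2.82% of all genes, but its fall at 6 h did not pass with centred arrays. At 6 h alone 5 members were called (15.2%, against 12% of all genes), at 48 h alone 7 (21.2%, against 17.3%) and at neither time 13 (39.4%, against 28.4%). Psma5, Psmb2 and the ATPase Psmc2 were called in none of the 6 comparisons; they are core and base subunits.

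Genes that work with the proteasome were followed beside it. The 3 immunoproteasome subunits, which replace the catalytic beta subunits when interferon signalling is active, fell with JQ1 at both times, 3 of 3 in each comparison, with median log2 changes of -0.62 at 6 h and -1.42 at 48 h. The share of all genes lower with JQ1 was 28.8% at 6 h and 29.6% at 48 h. Psmb8, which replaces Psmb5, read 8.44 and 8.72 with DMSO at 6 h, 7.60, 7.53 and 7.28 with JQ1 at 6 h, 8.66, 8.42 and 8.34 with DMSO at 48 h and 6.42, 6.30 and 6.50 with JQ1 at 48 h. Its changes were -1.12 ± 0.141 (adjusted p = 2.1e-05) and -2.06 ± 0.126 (adjusted p = 1.7e-08), and the JQ1 48 h arrays stood just above the dim limit of 6.23. Psmb9, which replaces Psmb6, changed by -0.62 and -1.42, and Psmb10, which replaces Psmb7, by -0.57 and -0.52. Leukocyte markers stayed low, and 2 of 5 were lower with JQ1 at 6 h and 0 of 5 at 48 h; their part in this result was not tested.

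Among activators and the inhibitor, 4 of 5 genes were measured. Psme4, which encodes the activator PA200, read 11.49 and 11.50 with DMSO and 12.33, 12.32 and 12.29 with JQ1 at 6 h, and 11.70, 11.67 and 11.63 against 12.43, 12.32 and 12.39 at 48 h. The JQ1 arrays lay above all DMSO arrays, with rises of 0.81 ± 0.042 (adjusted p = 6.7e-09) and 0.71 ± 0.037 (adjusted p = 3.7e-09). Psmf1, an inhibitor, rose with JQ1 by 0.14 and 0.31, and Psme1, a subunit of the interferon-inducible PA28 activator, fell by 0.10 and 0.15 on the log2 scale. With arrays centred on their medians neither fall of Psme1 passed (-0.017 and -0.058), nor with the mean of its probe sets (-0.041 and -0.032). The rise of Psmf1 at 6 h and the fall of Psme1 at 6 h were lost without any 1 of the 2 DMSO arrays at 6 h, and without JQ1 6 h array 1, 2 or 3 for Psmf1 and 2 or 3 for Psme1. Psme2, the partner of Psme1, differed by 0.00 at 6 h (adjusted p = 0.947) and fell by 0.28 at 48 h (adjusted p = 0.000118). After 48 h of PE all 4 were lower than in unstimulated cells, by a median of -0.22, where 22.6% of all genes were lower. Psme1 was at -0.48 ± 0.034 (adjusted p = 2.1e-07).

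Of 4 further subunits and associated enzymes, 3 were higher after 48 h of PE and 0 lower, with a median of 0.20. Among all genes 21.4% were higher and 22.6% lower. Uchl5, a deubiquitinase bound to the base, rose by 0.43 with PE at 48 h and by 0.51 and 0.47 with JQ1 at 6 h and 48 h. Sem1, a small lid subunit outside the symbol rule, changed by -0.27 with JQ1 at 6 h and by 0.12 at 48 h. The deubiquitinase Usp14 rose by 0.12 with PE at 48 h and by 0.08 with JQ1 at 48 h, the latter lost without PE 48 h array 1 or 3 or any JQ1 48 h array, and the ubiquitin receptor Adrm1 rose by 0.28 with PE at 48 h.

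Of the core assembly chaperones 4 of 5 were measured, and with JQ1 1 rose at 6 h and 2 rose at 48 h, with none falling past the threshold. Among all genes 25.5% rose at 6 h and 30% at 48 h, and 28.8% and 29.6% fell. Psmg1 rose by 0.28 and 0.45, and Pomp, which matures the core, rose by 0.18 at 48 h. With PE at 48 h Psmg2 and Pomp rose by 0.29 and 0.14.

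Of the factors that induce proteasome genes and the enzymes that process them, 4 of 5 were measured. Among these was Ddi2, which was dim in every group (group means of 3.59 to 3.79). With JQ1, 2 rose at each time and 0 fell, with medians of 0.16 at both. At 48 h the rise beside that of Ngly1 was in the dim Ddi2, with group means of 3.59 with DMSO and 3.79 with JQ1. The shares of all genes that rose were 25.5% at 6 h and 30% at 48 h. Ngly1, an enzyme that helps to activate Nfe2l1, rose by 0.71 ± 0.085 (adjusted p = 1.4e-05) and 0.77 ± 0.076 (adjusted p = 1.6e-06). Nfe2l1 itself differed by 0.13 ± 0.103 (adjusted p = 0.334) and 0.12 ± 0.092 (adjusted p = 0.286), and Nfe2l2 rose by 0.18 at 6 h (adjusted p = 0.00085) and differed by 0.07 at 48 h (adjusted p = 0.0691).

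Of 9 measured shuttle and p97 genes, which bring ubiquitinated proteins to the proteasome, 5 rose and 2 fell with JQ1 at 6 h and 6 rose and 2 fell at 48 h, with medians of 0.14 and 0.15. Among all genes 25.5% rose and 28.8% fell at 6 h, and 30% rose and 29.6% fell at 48 h. Of the 4446 bright genes 71.3% and 77.9% were called in either direction. The shuttle Ubqln2 rose by 0.68 and 0.84, while its relative Ubqln1 changed by -0.37 at 6 h and 0.15 at 48 h, and with the mean of its probe sets by -0.064 and 0.035, neither past the threshold. The segregase Vcp (p97) rose by 0.23 and 0.35. The ubiquitin-activating enzymes Uba1 and Uba6 rose at 48 h by 0.25 and 0.70, and Uba6 also rose at 6 h, by 0.36.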

How the data were processed

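RNA of neonatal rat myocytes in 5 groups was hybridised to 14 Affymetrix arrays, per the labels. The deposited values are log2 expression per probe set; the submitters' processing notes name limma, and the background correction and normalization behind these log2 values are not given in the sources used here. Values ran from 2.71 to 14.7 and array medians from 7.28 to 7.43. Of 20223 probe sets, 18510 named a single gene (18461 updated by gene ID); the brightest per gene gave 13184 genes. limma 3.58.1 in R 4.3.3 (lmFit, eBayes) fitted 1 mean per group over all arrays (9 residual degrees of freedom); p-values are two-sided, adjusted by Benjamini-Hochberg over all genes, with a threshold of 0.05 ("called", "rose", "fell"). A group mean below the 30th percentile of all genes (6.23) was called dim. Errors are standard errors of the log2 change; arrays correlated at 0.9976 to 0.9986 within groups, and the number of arrays limits the precision.

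The members, gene lists and tests were chosen with earlier results of these data known; the 1.2-fold and 1.5-fold bounds and the brightness range were chosen after the data were seen, and a wider interval bound, tried first, gave larger shares for members and all genes alike. The rule named, per comparison, the 3 largest called rises and falls, the catalytic subunits and members that are no subunit; others named in a count were added after their values were seen. Motifs were searched in RefSeq promoters on both strands. The fit was tested on simulated data: at 6 h of PE it recovered 92% of 1.5-fold, 40% of 1.2-fold and 6% of 1.1-fold changes among 13184 genes. Each size of change was given to 50 genes, fewer than were called in the data. Alternatives were other scalings, the mean of probe sets, a filter on dim genes, a replicate block, an intensity trend, fits of the compared groups alone and leaving out each array. Same-numbered arrays of different groups did not deviate together (26 correlations of -0.226 to 0.142, 4 over 0.1).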

Additional observations from a re-analysis of the deposited data

Results flagged for a closer look

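The JQ1 effect at 48 h differed from that at 6 h past the threshold, by the interaction term of the limma fit, for the following genes, given as log2 differences with no explanation. In the core they were Psma1 at -0.16, Psma2 at 0.19, Psma6 at 0.27, Psma7 at 0.18, Psmb1 at 0.15, Psmb4 at 0.22, Psmb5 at 0.18 and Psmb7 at 0.28. In the 19S particle they were Psmc3 at 0.14, Psmd6 at 0.33, Psmd13 at 0.28 and Psmd14 at -0.31. Among genes that work with the proteasome, Sem1 differed by 0.39, Psmg1 by 0.18, Pomp by 0.17 and Psme2 by -0.27. The immunoproteasome subunits Psmb8 and Psmb9 differed by -0.95 and -0.80, Ubqln1 by 0.53, Uba1 by 0.21 and Uba6 by 0.34. The calls of Psma1, Psma7, Psmb1 and Psmc3 were lost when some arrays were left out in turn (12, 5, 10 and 9 of 14).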

How the results depend on the processing

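Of the 65 calls of proteasome genes in the 6 comparisons, 40 passed the threshold in the same direction under all 21 alternative settings, 20 were lost without at least 1 array and 5 were lost in other settings only; none reversed. Reversals occurred in accompanying genes with the mean of a gene's probe sets: Rad23b at 48 h of JQ1 gave 0.029, and the difference between JQ1 effects for Uba6 gave -0.038. Other settings moved counts of members by over 1.5 times as follows. The cause was not tested for any of them. Repeated quantile normalization gave 1 lower with PE at 48 h and 5 lower with JQ1 at 48 h. Centring arrays gave 15 higher and 3 lower with JQ1 at 6 h, and 20 and 1 at 48 h. The mean of probe sets gave 1 lower for PE at 48 h against 6 h and 1 lower for the difference between JQ1 effects. Leaving out dim genes, so fewer genes were tested, gave 1 lower with PE at 48 h, 2 lower for 48 h against 6 h and 4 lower for the JQ1 difference. An intensity trend gave 8 higher and 2 lower with PE at 6 h, 2 lower with PE at 48 h, 3 lower for 48 h against 6 h and 4 lower for the JQ1 difference. Fits of the compared groups alone, with fewer arrays, gave 0 higher and 0 lower with PE at 6 h and 1 lower with JQ1 at 48 h. With the replicate number as a block, 0 members were lower with PE at 6 h; 3 of 5 calls were kept there, 11 of 12 and 7 of 8 in the other PE comparisons, and 12 of 13, 15 of 15 and 9 of 12 in the JQ1 comparisons and their difference. The numbers did not pair the arrays. Leaving out each array in turn gave 1 to 5 higher and 0 to 1 lower with PE at 6 h, 9 to 12 and 0 to 1 at 48 h, 6 to 7 and 0 to 0 for 48 h against 6 h, 4 to 5 and 6 to 8 with JQ1 at 6 h, 12 to 13 and 1 to 3 at 48 h, and 7 to 10 and 1 to 2 for the difference. In simulation, with 50 genes changed at each size, 6% to 12% of 1.1-fold changes were recovered. In the data 37.2% to 59.6% of all genes were called in the same comparisons, so these shares do not measure the recovery for members. A member without a call is not shown to be unchanged.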
